A study of Mus musculus with 12 samples.

Results

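The cell cycle and proliferation genes described here are 43 genes, chosen by symbol, of the 54532 listed in the count tables. They comprise cyclins with their kinase Cdk1, E2F and FoxM1 transcription factors, replication proteins, enzymes of nucleotide supply, chromatin proteins of dividing cells, checkpoint and mitotic kinases, and proteins of the spindle and of cytokinesis. All 43 are protein-coding in the GENCODE M21 annotation, and all 43 had enough counts to be tested. RNA was taken from the striatum of C57BL/6J mice, and polyA+ RNA was sequenced in 12 libraries that form 4 groups of 3. Sham mice received PBS after a sham operation. Vehicle mice had transient middle cerebral artery occlusion (tMCAO), in which the artery feeding the striatum is closed and later reopened, and received PBS. Mice of the groups titled SN011 and 3d-SN011 had tMCAO and received SN-011, a small-molecule antagonist of STING, an adaptor of innate immune signalling. Both of these arms carry the same treatment label, the meaning of 3d is not given in the labels, and no sham or vehicle library carries that prefix. A difference between the 3d-SN011 arm and any other group therefore cannot be told apart from whatever the prefix stands for. The labels give no age, dose or time after occlusion. They also do not state that each library is a different mouse, and p-values therefore refer to the spread among these samples, which may be technical.

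A dividing cell passes G1, copies its DNA in S phase, and separates the copies in mitosis. D-type cyclins release E2F factors from the retinoblastoma protein, and E2F factors switch on replication genes. Later the MuvB complex with B-Myb and FoxM1 switches on the mitotic genes, whose promoters often hold a CCAAT box and an element named CHR. In the adult striatum nearly all neurons are out of the cycle, and after a stroke microglia, astrocytes, oligodendrocyte precursors, vascular cells and subventricular progenitors are known to divide.

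Libraries held 15806076 to 18622053 counts, of which mitochondrially encoded genes took 3.77% to 6.82%. The summed level of 9 markers of striatal projection neurons, among them the dopamine receptor genes Drd1 and Drd2, lay between 6560 and 7224 CPM (counts scaled to library size) in sham and between 6925 and 7140 in vehicle. It lay between 4096 and 7064 in SN011, where replicate 3 was the lowest, and between 304 and 1922 in 3d-SN011. All 9 markers fell in 3d-SN011 against vehicle, where 28.2% of all genes fell. Replicate 3 of SN011 also stood apart in the cell cycle genes: it was the highest library of its arm for 41 of the 43. Replicate 3 of 3d-SN011 was the lowest of its arm for 38 of the 43. Counts and medians over the 43 genes that compare SN011 with sham or vehicle are therefore also given without its replicate 3.

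Cell cycle genes were much more abundant in the 3d-SN011 libraries than in vehicle, while vehicle and sham differed little. In 3d-SN011 against vehicle, 41 of the 43 genes rose and 0 fell at an adjusted p under 0.05 in edgeR's quasi-likelihood test. Of all 18537 genes tested, 28.9% rose in that comparison and 28.2% fell. The median log2 fold change was 2.09 over the 43 genes and 0.01 over all genes tested. Cdk1 had the largest change, at 3.65, and Ccnb2 the next, at 3.35. The 3d-SN011 libraries lay above all vehicle libraries for 41 genes and below them for 1 (Ccne2), against 29.5% and 30% of all genes. Ccne2 and Chek1 did not pass the test, and Anln passed it only just. In whole tissue, more cells of a dividing type and more of these transcripts per cell cannot be told apart.

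The promoters of 8 genes are shown because these genes hold strong and weak changes from both cycle phases. The windows run from 150 bases before to 30 bases after the transcription start in RefSeq GRCm38.p6, 5′ to 3′ on the strand of the gene. Capitals mark matches on either strand to the CHR (TTTGAA), to the CCAAT box (CCAAT) or to an E2F site, for which TTTCCCGC, TTTCGCGC, TTTGCCGC and TTTGGCGC were searched. In the windows found for 35 of the 43 genes, 2 pairs of matches to different motifs shared a base. Cdk1, Ccnb2, Cdc20 and Kif23 are mitotic genes that rose. Anln is a cytokinesis gene with the smallest rise called. Mcm3 and Hells are S phase genes that rose, and Chek1 is a checkpoint gene that was not called. The windows lie at chr10:69352883-69353062 for Cdk1, chr9:70421525-70421704 for Ccnb2, chr4:118437314-118437493 for Cdc20, chr9:61946770-61946949 for Kif23, chr9:22389177-22389356 for Anln, chr1:20820283-20820462 for Mcm3 and chr9:36726629-36726808 for Chek1, all on the minus strand. That of Hells lies at chr19:38930840-38931019 on the plus strand.
Cdk1: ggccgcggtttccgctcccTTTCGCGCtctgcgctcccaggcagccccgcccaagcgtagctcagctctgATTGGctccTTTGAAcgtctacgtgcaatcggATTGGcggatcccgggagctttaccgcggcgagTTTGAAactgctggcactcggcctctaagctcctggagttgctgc
Ccnb2: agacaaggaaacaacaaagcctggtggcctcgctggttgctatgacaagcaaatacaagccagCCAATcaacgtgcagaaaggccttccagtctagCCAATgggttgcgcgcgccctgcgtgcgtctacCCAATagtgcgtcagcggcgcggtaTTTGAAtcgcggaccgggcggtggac
Cdc20: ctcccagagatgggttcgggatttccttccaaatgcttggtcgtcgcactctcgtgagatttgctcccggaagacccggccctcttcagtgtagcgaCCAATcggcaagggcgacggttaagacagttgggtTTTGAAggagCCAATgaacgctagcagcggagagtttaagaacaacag
Kif23: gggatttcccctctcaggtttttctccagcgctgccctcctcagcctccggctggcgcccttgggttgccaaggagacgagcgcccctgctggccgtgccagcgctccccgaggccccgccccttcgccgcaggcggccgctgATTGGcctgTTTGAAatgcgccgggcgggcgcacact
Anln: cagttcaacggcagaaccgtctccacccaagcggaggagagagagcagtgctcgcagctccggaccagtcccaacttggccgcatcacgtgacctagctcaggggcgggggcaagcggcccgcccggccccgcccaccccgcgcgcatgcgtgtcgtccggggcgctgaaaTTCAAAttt
Mcm3: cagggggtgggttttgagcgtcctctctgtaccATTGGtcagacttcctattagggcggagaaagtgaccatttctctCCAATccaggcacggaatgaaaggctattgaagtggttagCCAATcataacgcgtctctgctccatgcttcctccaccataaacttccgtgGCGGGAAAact
Hells: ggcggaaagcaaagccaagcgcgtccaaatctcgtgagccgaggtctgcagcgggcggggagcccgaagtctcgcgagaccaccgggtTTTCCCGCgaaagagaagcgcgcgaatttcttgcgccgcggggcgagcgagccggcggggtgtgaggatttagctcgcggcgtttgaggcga
Chek1: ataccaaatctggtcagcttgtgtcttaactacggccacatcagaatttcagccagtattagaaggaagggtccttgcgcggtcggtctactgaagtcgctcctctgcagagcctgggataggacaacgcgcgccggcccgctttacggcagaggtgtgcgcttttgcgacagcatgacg

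Windows from 250 bases before to 50 bases after the start were found for 35 of the 43 genes (38 windows). Ccna2, Ccnd1, Ccne2, Foxm1, Mcm4, Aurkb, Kif20a and Tpx2 were not matched. A CHR match was present in 17 of 22 windows of G2 and mitosis genes (77.3%) and in 1 of 16 windows of G1/S and S phase genes (6.25%), that of Mcm2. Of all 32851 RefSeq promoter windows of the same length, 17.9% held one, and of the 16307 windows of genes tested here, 12.4% did. The 22 windows stand for 21 genes, with 2 overlapping windows for Prc1. A CCAAT match was present in 86.4% of the G2 and mitosis windows, in 68.8% of the G1/S and S phase windows and in 37.4% of all windows. An E2F match was present in 4.55%, 37.5% and 2.26% of the same sets. A CHR and a CCAAT match stood together in 72.7% of the G2 and mitosis windows, 6.25% of the G1/S and S phase windows and 6.95% of all windows. Over the windows of genes tested, the shares were 37.0% for CCAAT, 3.57% for E2F and 4.87% for CHR with CCAAT. These matches describe letters and are not shown to be bound sites.

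Changes were also set beside the motifs as a description. The median log2 fold change in 3d-SN011 against vehicle was 2.17 over the 17 genes with a CHR match and 2.05 over the 18 without one. It was 2.17 over the 27 genes with a CCAAT match and 1.46 over the 8 without. With an E2F match it was 1.95 over 7 genes, and without one 2.13 over 28. Anln, with 2 CHR matches after its start, had a log2 fold change of 0.32. The 5 G2 and mitosis genes with no CHR match in this window, Bub1, Birc5, Ccnb1, Cenpe and Nusap1, had log2 fold changes of 2.99, 2.98, 2.77, 2.09 and 2.02.

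**Figure D1:**
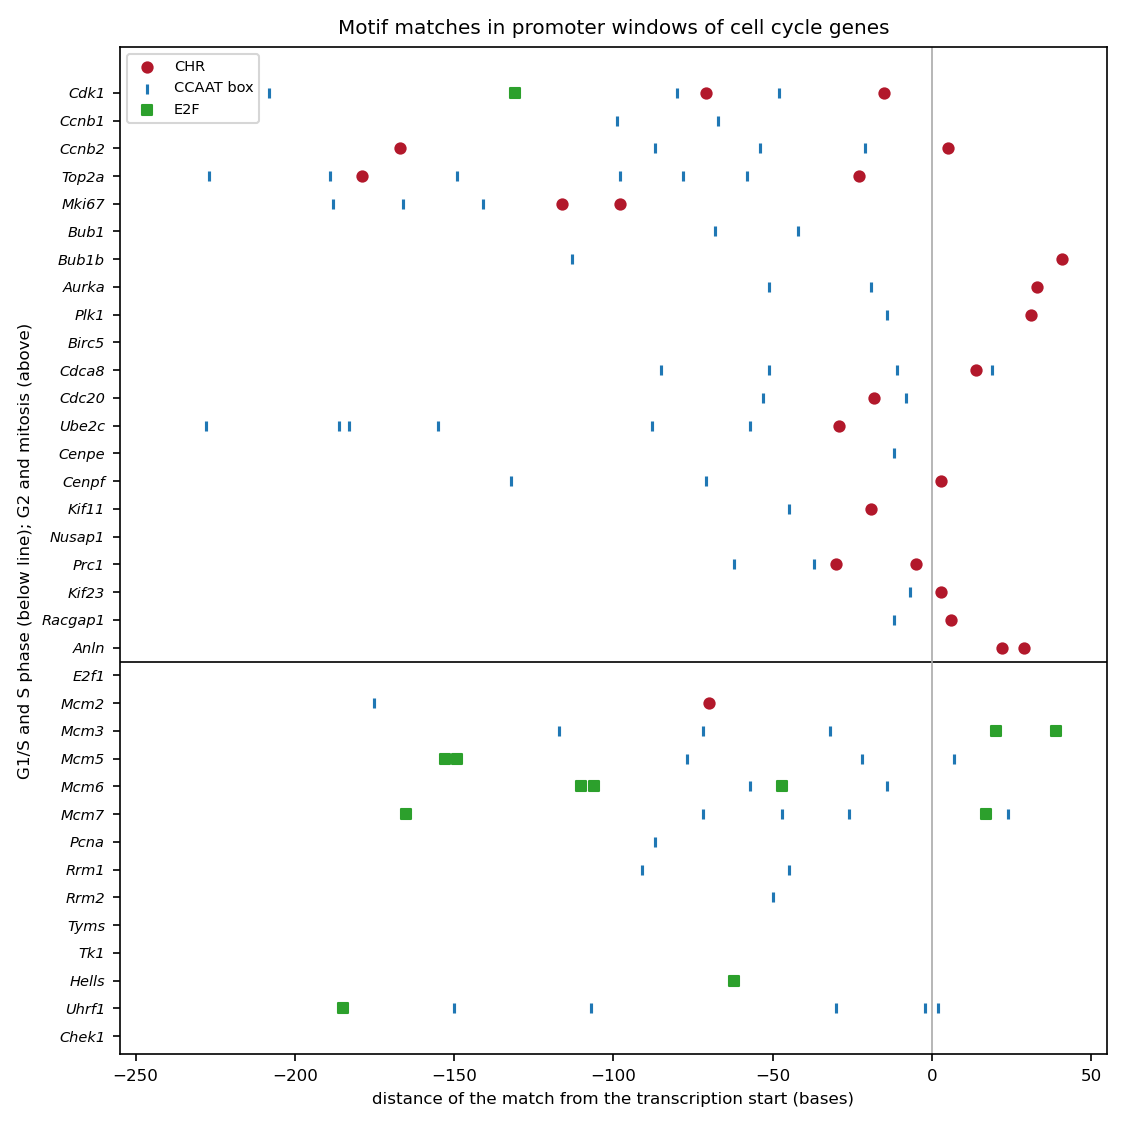
Position of each match to the CHR (circles), CCAAT box (ticks) and E2F motif (squares) in bases from the transcription start, for the 35 genes with a promoter window, G2 and mitosis genes above the horizontal line and G1/S and S phase genes below it. CHR matches stand in the upper block, with 1 exception (Mcm2), and E2F matches in the lower block, with 1 exception (Cdk1).

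Cyclins and Cdk1 set the pace of the cycle, and 5 of these 6 genes rose in 3d-SN011 against vehicle, with a median log2 fold change of 2.95. Cdk1 (chr10:69335146-69352938), the kinase that drives entry into mitosis, was at 1.33, 1.09 and 1.27 CPM in sham replicates 1 to 3, 2.25, 1.76 and 1.29 in vehicle, 3.35, 2.22 and 7.07 in SN011, and 25.0, 23.6 and 18.3 in 3d-SN011. The 3d-SN011 libraries were all far above the others, and within SN011 replicate 3 was the highest, while replicate 1 also lay above every vehicle library. The change in 3d-SN011 against vehicle was 12.6-fold (log2 3.65, SE 0.38, adjusted p = 1.58e-05, edgeR). Ccnb2 (chr9:70407692-70421547), a B-type partner of Cdk1, was at 0.789, 1.27 and 2.30 CPM in sham, 1.44, 1.82 and 1.29 in vehicle, 2.48, 2.28 and 5.70 in SN011, and 16.1, 18.2 and 12.1 in 3d-SN011. It rose 10.2-fold in 3d-SN011 against vehicle (log2 3.35, SE 0.42, adjusted p = 3.52e-05, edgeR), and its SN011 libraries lay above all vehicle libraries but overlapped the sham range.

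Ccnd1 (chr7:144929931-144939925), the D-type cyclin that carries growth signals into the cycle, was at 18.7, 21.0 and 22.3 CPM in sham, 14.2, 14.8 and 19.2 in vehicle, 30.6, 27.6 and 76.1 in SN011, and 164, 182 and 78.3 in 3d-SN011. Replicate 3 of SN011 and replicate 3 of 3d-SN011 were almost level, and the other libraries of both arms were widely apart. Ccnd1 rose 8.79-fold in 3d-SN011 against vehicle (log2 3.14, SE 0.39, adjusted p = 3.63e-05, edgeR) and alone made up 13.9% of the difference in summed CPM of the 43 genes. Ccnb1 and Ccna2, the mitotic and the S to G2 cyclin, rose by log2 2.77 (SE 0.42) and 1.81 (SE 0.25). Ccne2 (chr4:11191351-11204779), the E-type cyclin of S phase entry, was the exception, at 7.58, 8.73 and 7.86 CPM in sham, 10.2, 8.07 and 9.27 in vehicle, 4.39, 8.72 and 9.53 in SN011, and 6.60, 6.52 and 7.43 in 3d-SN011. Its 3d-SN011 libraries were below all vehicle and all sham libraries, with a log2 difference from vehicle of -0.42 (SE 0.25, adjusted p = 0.162, edgeR), which did not pass the test. Ccne2 shares exon sequence with Ints8 on the other strand, and without a known strand setting their reads cannot be told apart. Ints8 had a log2 difference of -0.28 and was not called.

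Foxm1 and E2f1, transcription factors of mitotic and of S phase genes, both rose in 3d-SN011 against vehicle, but to unlike degrees. Foxm1 (chr6:128362967-128376146) was at 5.10, 3.82 and 4.54 CPM in sham, 4.94, 4.23 and 4.38 in vehicle, 6.36, 5.67 and 14.7 in SN011, and 37.9, 32.1 and 26.3 in 3d-SN011. E2f1 (chr2:154559407-154569892) was at 10.5, 12.3 and 11.6 CPM in sham, 8.43, 7.55 and 9.52 in vehicle, 10.5, 9.71 and 10.2 in SN011, and 20.2, 13.2 and 14.5 in 3d-SN011. Both genes were higher in every 3d-SN011 library than in any other library. The fold was 7.10 for Foxm1 (log2 2.83, SE 0.32, adjusted p = 2.22e-05, edgeR) and 1.88 for E2f1 (log2 0.91, SE 0.18, adjusted p = 0.000919, edgeR). E2f1 was also the 1 gene of the 43 whose vehicle libraries all lay below the sham libraries.

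The MCM helicase unwinds DNA at replication forks and Pcna clamps the polymerase to its template, and all 7 of these genes rose in 3d-SN011 against vehicle, with a median log2 fold change of 1.24. Pcna (chr2:132249162-132253314) was at 32.03, 34.1 and 32.5 CPM in sham, 35.2, 35.1 and 31.3 in vehicle, 38.0, 38.9 and 46.4 in SN011, and 86.1, 78.3 and 75.4 in 3d-SN011. Replicates of Pcna lay close together, and every SN011 library was above every sham and vehicle library. Its log2 fold change of 1.24 in 3d-SN011 against vehicle had an SE of 0.11 (adjusted p = 1.22e-05, edgeR). Mcm4 (chr16:15623897-15637400) had the weakest rise of the group, from 17.3, 16.9 and 13.8 CPM in vehicle to 30.04, 28.5 and 19.3 in 3d-SN011, beside 15.04, 15.4 and 14.8 in sham and 13.6, 18.1 and 21.4 in SN011. Its SN011 and 3d-SN011 libraries overlapped, and its log2 fold change against vehicle was 0.70 (SE 0.20, adjusted p = 0.00890, edgeR). The 6 subunits of 1 helicase did not rise alike: log2 fold changes were 2.64 for Mcm3, 1.95 for Mcm6, 1.74 for Mcm2, 1.20 for Mcm5, 0.94 for Mcm7 and 0.70 for Mcm4. Mcm7 shares exon sequence with Ap4m1 and Cops6 on the other strand, which had log2 differences of 0.01 and -0.20 and were not called.

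Enzymes that make deoxynucleotides rose in 4 of 4 cases, with a median log2 fold change of 2.40 in 3d-SN011 against vehicle. Ribonucleotide reductase, which turns ribonucleotides into deoxynucleotides, has a stable large subunit, Rrm1, and a small subunit, Rrm2, made in S phase. Rrm1 (chr7:102441695-102469771) was at 20.8, 20.1 and 22.8 CPM in sham, 19.0, 23.1 and 19.8 in vehicle, 19.1, 21.5 and 31.8 in SN011, and 48.4, 55.5 and 33.4 in 3d-SN011. Rrm2 (chr12:24708241-24714146) was at 3.76, 7.09 and 5.99 CPM in sham, 5.81, 6.70 and 5.86 in vehicle, 6.88, 7.08 and 20.2 in SN011, and 42.5, 64.7 and 33.3 in 3d-SN011. For both subunits replicate 2 of 3d-SN011 was the highest library and replicate 3 the lowest of that arm. The log2 fold change was 2.94 for Rrm2 (SE 0.41, adjusted p = 7.45e-05, edgeR) and 1.15 for Rrm1 (SE 0.21, adjusted p = 0.000490, edgeR). Tk1 and Tyms, thymidine kinase and thymidylate synthase, rose by log2 2.63 (SE 0.37) and 2.17 (SE 0.39). Tk1 shares exons with Afmid on the other strand, whose own rise was log2 2.03.

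Chromatin and topology genes rose in 4 of 4 cases, with a median log2 fold change of 2.28. Uhrf1 (chr17:56303321-56323486), which brings the maintenance methyltransferase to newly copied DNA, was at 3.70, 4.79 and 5.38 CPM in sham, 6.43, 6.64 and 6.05 in vehicle, 6.36, 5.85 and 10.8 in SN011, and 36.1, 26.4 and 23.4 in 3d-SN011. Hells (chr19:38930915-38971051), a chromatin remodeller that works beside it in DNA methylation, was at 4.91, 6.24 and 5.02 CPM in sham, 5.37, 5.01 and 4.83 in vehicle, 4.10, 5.79 and 6.47 in SN011, and 8.85, 9.19 and 8.89 in 3d-SN011. The 3d-SN011 libraries were above all others for both genes, narrowly for Hells and widely for Uhrf1. Against vehicle, Uhrf1 rose by log2 2.17 (SE 0.25, adjusted p = 2.53e-05, edgeR) and Hells by 0.82 (SE 0.20, adjusted p = 0.00349, edgeR). Mki67, which codes for the proliferation antigen Ki-67, went from 13.9, 18.2 and 12.7 CPM in vehicle to 98.0, 78.7 and 69.8 in 3d-SN011. Top2a, the topoisomerase that untangles sister chromatids, went from 10.6, 19.5 and 13 CPM to 96.9, 88.1 and 40.5. The log2 fold changes were 2.46 (SE 0.31) and 2.39 (SE 0.39). In replicate 3 of SN011, Top2a reached 42.1 CPM, above the lowest 3d-SN011 library, while Mki67 reached 39.3 and stayed below that arm.

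Among the checkpoint kinases, Bub1b and Bub1 of the spindle checkpoint rose and Chek1 of the DNA damage checkpoint did not pass the test in 3d-SN011 against vehicle. Bub1b (chr2:118598211-118641591) was at 2.37, 2.97 and 2.06 CPM in sham, 3.81, 3.71 and 2.57 in vehicle, 3.58, 3.98 and 8.22 in SN011, and 18.8, 15.7 and 10.9 in 3d-SN011. Chek1 (chr9:36708482-36727065) was at 2.12, 2.73 and 2.00 CPM in sham, 3.94, 2.80 and 2.90 in vehicle, 1.85, 2.52 and 3.89 in SN011, and 4.196, 5.09 and 3.34 in 3d-SN011. For Bub1b, every 3d-SN011 library lay above all other libraries, while vehicle and SN011 overlapped. The Chek1 libraries of vehicle, SN011 and 3d-SN011 all overlapped. Against vehicle, Bub1b rose by log2 2.17 (SE 0.33, adjusted p = 0.000141, edgeR), and the log2 difference of Chek1 was 0.39 (SE 0.30, adjusted p = 0.282, edgeR). Against sham, Chek1 rose by log2 0.88 (SE 0.30, adjusted p = 0.0248, edgeR), and that call was lost without sham replicate 1, without sham replicate 3 or without 3d-SN011 replicate 2. Bub1 had the fewest counts of the 43 genes, 10 in 1 sham library, and rose by log2 2.99 (SE 0.49).

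Mitotic kinases and passenger proteins rose in 5 of 5 cases, with a median log2 fold change of 2.51. Aurkb (chr11:69045647-69051664), the kinase of the chromosomal passenger complex, was at 1.58, 1.64 and 1.94 CPM in sham, 2.19, 1.43 and 1.35 in vehicle, 1.96, 2.52 and 5.48 in SN011, and 20.4, 12.4 and 11.96 in 3d-SN011. Plk1 (chr7:122159439-122169873), which matures centrosomes and helps start anaphase, was at 3.09, 3.58 and 2.42 CPM in sham, 3.44, 3.19 and 4.31 in vehicle, 6.36, 3.28 and 8.99 in SN011, and 18.1, 14.4 and 12.4 in 3d-SN011. For Plk1, replicates 1 and 3 of SN011 lay above every sham and vehicle library, and for Aurkb replicates 2 and 3 did. The log2 fold change in 3d-SN011 against vehicle was 3.16 for Aurkb (SE 0.39, adjusted p = 3.11e-05, edgeR) and 2.04 for Plk1 (SE 0.32, adjusted p = 0.000169, edgeR). The passenger subunits Birc5 (survivin) and Cdca8 (borealin) rose by log2 2.98 and 2.51, and Aurka, the kinase of spindle poles, by 1.95.

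Cdc20 and Ube2c, the activator and the ubiquitin-conjugating enzyme of the anaphase-promoting complex, gave the highest median of the 10 role groups, a log2 fold change of 3.00. Cdc20 (chr4:118432901-118437352) was at 1.33, 1.94 and 3.02 CPM in sham, 1.94, 2.34 and 1.93 in vehicle, 3.64, 2.92 and 8.99 in SN011, and 25.1, 17.1 and 12.5 in 3d-SN011. Ube2c (chr2:164769898-164778822) was at 1.33, 2.85 and 2.06 CPM in sham, 2.69, 2.80 and 3.02 in vehicle, 2.89, 3.45 and 8.77 in SN011, and 24.2, 23.97 and 14.2 in 3d-SN011. For both, replicate 3 of SN011 lay between the other SN011 libraries and the 3d-SN011 range without reaching it. The log2 fold change was 3.13 for Cdc20 (SE 0.44, adjusted p = 7.65e-05, edgeR) and 2.87 for Ube2c (SE 0.41, adjusted p = 8.25e-05, edgeR). Cdc20 overlaps Elovl1 on the other strand, which rose by log2 0.89.

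Kinetochore and spindle genes rose in 5 of 5 cases, with a median log2 fold change of 2.09. Tpx2 (chr2:152847964-152895321), which activates Aurora A on the spindle, was at 4.37, 5.15 and 3.93 CPM in sham, 3.56, 5.79 and 5.60 in vehicle, 6.70, 6.84 and 18.63 in SN011, and 35.2, 43.9 and 19.6 in 3d-SN011. Cenpe (chr3:135212537-135273611), the kinetochore motor that aligns chromosomes, was at 2.79, 4.24 and 3.27 CPM in sham, 2.94, 5.47 and 4.38 in vehicle, 3.81, 7.37 and 10.7 in SN011, and 21.0, 24.2 and 9.26 in 3d-SN011. Replicate 3 of SN011 passed replicate 3 of 3d-SN011 for Cenpe and came close to it for Tpx2. The log2 fold change was 2.72 for Tpx2 (SE 0.41, adjusted p = 0.000130, edgeR) and 2.09 for Cenpe (SE 0.41, adjusted p = 0.000870, edgeR). Cenpf, Nusap1 and Kif11, a kinetochore protein, a spindle bundler and the motor that pushes spindle poles apart, rose by log2 2.44, 2.02 and 1.83. Nusap1 overlaps Oip5 on the other strand, which rose by log2 1.22.

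Central spindle and cytokinesis genes rose in 5 of 5 cases but had a lower median, a log2 fold change of 1.51. Kif23 (chr9:61915905-61946774), a motor of the centralspindlin complex, was at 2.97, 3.76 and 3.27 CPM in sham, 3.998, 5.14 and 3.86 in vehicle, 4.22, 5.44 and 9.48 in SN011, and 16.02, 16.2 and 13.4 in 3d-SN011. Anln (chr9:22332012-22389188), an actin-binding protein of the cleavage furrow that is also made by myelinating oligodendrocytes, was at 63.7, 66.4 and 77.8 CPM in sham, 80.4, 74.1 and 57.8 in vehicle, 78.7, 67.3 and 72.8 in SN011, and 87.1, 91.0 and 86.8 in 3d-SN011. The 3d-SN011 libraries were above all others for both genes, for Anln by a small margin. The log2 fold change was 1.81 for Kif23 (SE 0.27, adjusted p = 0.000121, edgeR) and 0.32 for Anln (SE 0.13, adjusted p = 0.0498, edgeR). The Anln call was lost in 8 of the alternative analyses, among them the fit without vehicle replicate 3, where its log2 fold change was 0.19. Prc1, Kif20a and Racgap1, which bundle or organise central spindle microtubules, rose by log2 1.53, 1.51 and 1.02. The 8 oligodendrocyte markers, of which 5 rose in 3d-SN011 against vehicle, had a median log2 fold change of 0.70. Of all genes, 28.9% rose in that comparison.

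**Figure D2:**
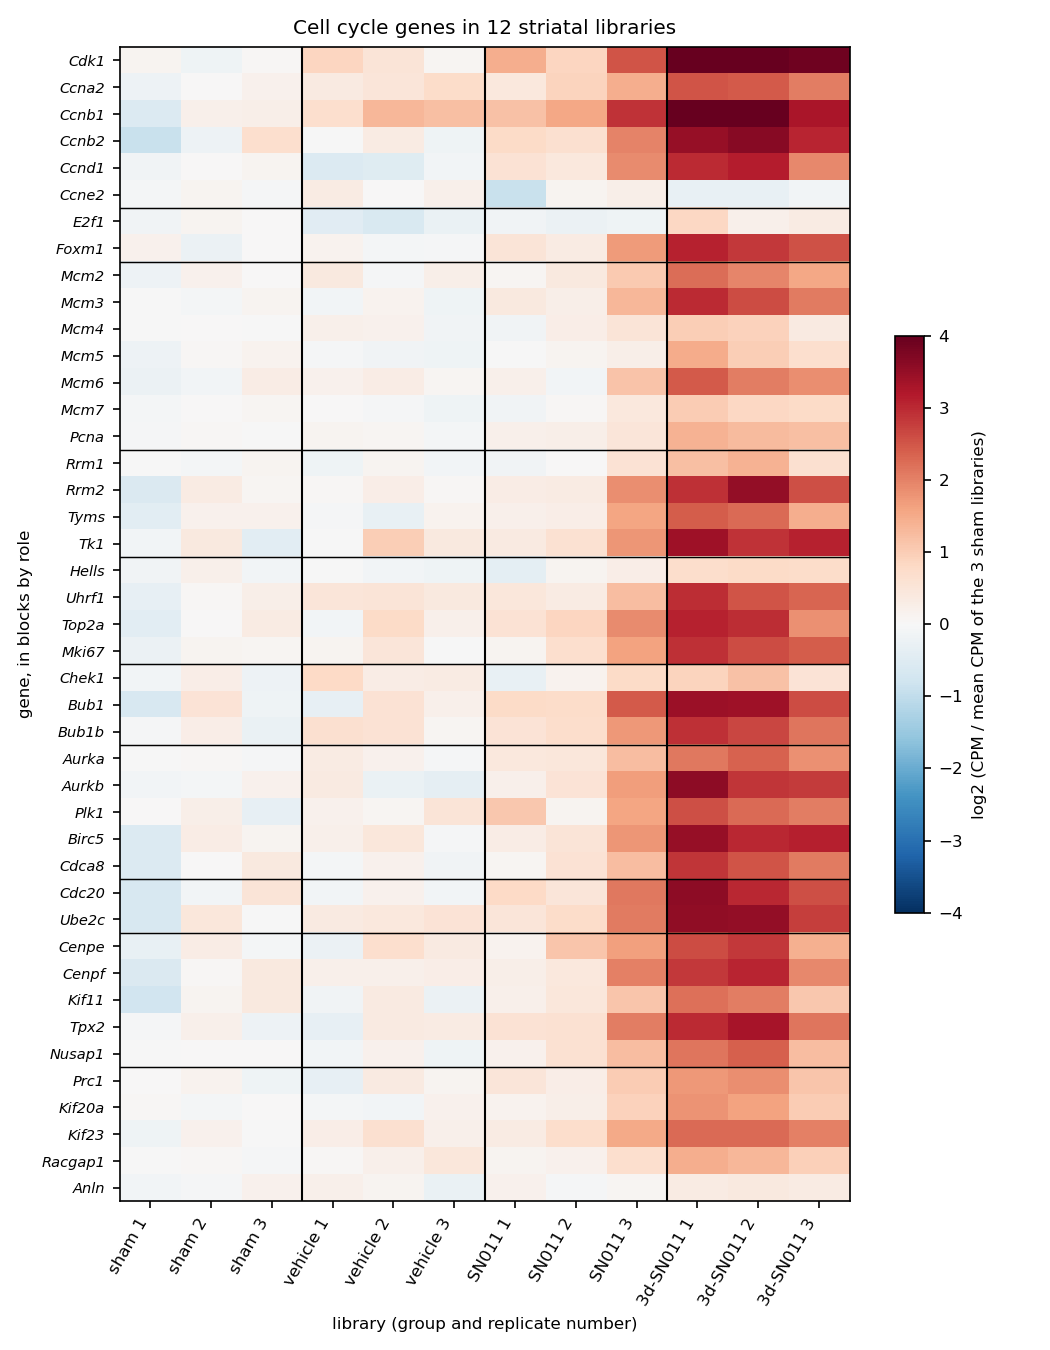
Level of each of the 43 genes in each of the 12 libraries, as log2 of CPM over the mean CPM of the 3 sham libraries, in blocks by role (colours end at 4). The 3d-SN011 columns are red for nearly every gene, SN011 replicate 3 is the reddest of the other columns, and Ccne2, Anln and E2f1 are the palest genes in 3d-SN011.

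**Figure D3:**
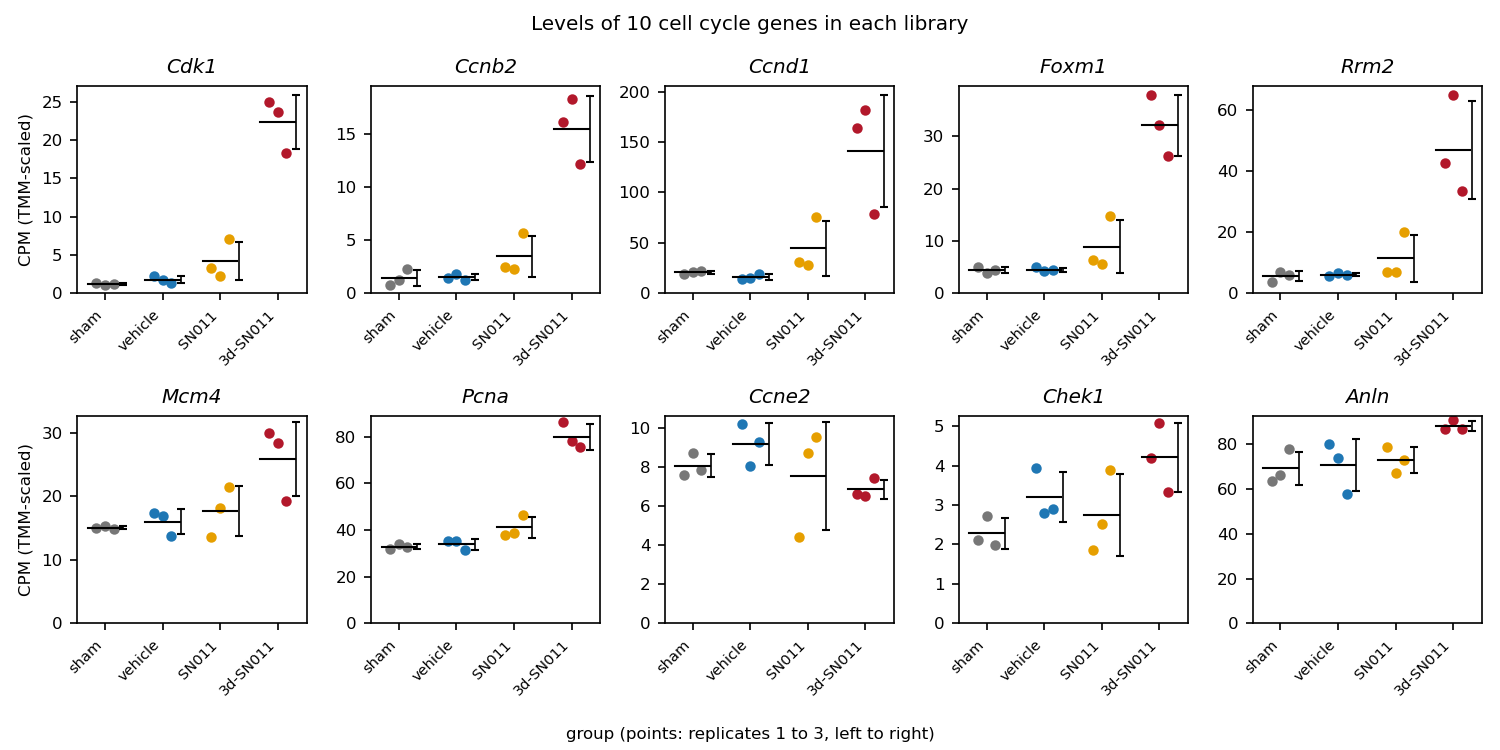
TMM-scaled CPM of 10 genes by group, with replicates 1 to 3 from left to right, the horizontal line at the mean and the bar showing ± SD (n = 3). Cdk1 lies between 18.3 and 25.0 CPM in 3d-SN011 and below 8 in all other libraries, whereas Ccne2 and Chek1 overlap or lie lower.

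Genes of both cycle phases rose, and the difference in size between the phases was not tested. The 26 genes of G2 and mitosis had a median log2 fold change of 2.42 in 3d-SN011 against vehicle, and 26 rose. The 16 genes of G1/S and S phase had a median of 1.22, and 14 rose. Ccnd1, with a log2 fold change of 3.14, was placed in neither set. Of all genes, 28.9% rose in this comparison. Levels per kilobase of exon, which allow genes to be compared, were highest for Pcna in each group, at 14.1 ± 0.93 CPM per kb in vehicle and 33.3 ± 2.31 in 3d-SN011 (SD, n = 3). Anln came next in vehicle, at 7.81 ± 1.29 CPM per kb, and Cdk1, Tyms, Cenpf and Bub1 were the lowest there, between 0.25 and 0.36. In 3d-SN011 Ccnd1 was second at 29.99 ± 11.7 CPM per kb, within its spread of Pcna, followed by Rrm2 at 16.9 ± 5.82, Ccnb2 at 10.1 ± 2.03 and Cdc20 at 9.75 ± 3.41. The last pair did not differ beyond their spread. Across the 43 genes, which share libraries and are not independent, Spearman's rho between the sham level per kilobase and the log2 fold change in 3d-SN011 against vehicle was -0.44, so genes low in sham tended to have larger changes.

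Sham and vehicle showed little difference in these genes. In vehicle against sham, 0 of the 43 were called by edgeR and 0 by DESeq2, where edgeR called 0% of all genes tested. At an unadjusted p under 0.05, 1 gene was higher (Ccnb1) and 1 lower (E2f1), against 1.4% and 1.12% of all genes. The median log2 fold change was 0.15, beside 0.01 over all genes. The vehicle libraries lay above all sham libraries for Ccna2, Ccnb1, Uhrf1, Chek1 and Kif23, which makes 5 of 43, and below them for 1, against 6.86% and 6.29% of all genes. Ccnb1 went from 1.09, 1.82 and 1.88 CPM in sham to 2.56, 4.03 and 3.67 in vehicle (log2 1.10, SE 0.45, unadjusted p = 0.0318, edgeR).

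SN011 was compared with vehicle, both after occlusion and without the 3d prefix, and the labels give no dose or time for either. 0 of the 43 genes were called by edgeR, which called 0.0108% of all genes higher and 0.00539% lower, and 2 (Ccnd1 and Cdk1) were called by DESeq2, which called 2.53% of the genes it tested higher. At an unadjusted p under 0.05, 18 were higher and 0 lower, against 8.74% and 2.31% of all genes, and the median log2 fold change was 0.65. Without replicate 3 of SN011, 2 were higher (Ccnd1 and Cdk1) and 0 lower, against 3.58% and 1.08% of all genes. The 18 were Cdk1, Ccnb1, Ccnb2, Ccnd1, Foxm1, Mcm3, Pcna, Rrm2, Tyms, Top2a, Mki67, Bub1, Aurka, Aurkb, Plk1, Cdc20, Tpx2 and Nusap1. Without that replicate the median was 0.19 and 34 of 43 genes were positive, compared with 41 of 43 with it. For 13 genes, among them Ccnd1, Ccnb2, Foxm1, Pcna and Cdc20, all SN011 libraries lay above all vehicle libraries, and for 0 below, against 9.01% and 7.32% of all genes. The median coefficient of variation over the 43 genes was 44.4% in SN011, 15% in vehicle and 13.7% in sham.

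Within SN011, replicate 3 stood above the other libraries. The median difference of the 43 genes from the sham mean, on the log2 CPM scale, was 0.28, 0.42 and 1.44 in SN011 replicates 1 to 3, beside 0.10, 0.22 and 0.08 in vehicle and 2.55, 2.42 and 1.92 in 3d-SN011. Replicate 3 of SN011 was above every sham and vehicle library for 39 of the genes, replicate 1 for 13 and replicate 2 for 25. Summed over the 43 genes, the level was 330 to 386 CPM in sham, 362 to 404 in vehicle, 417, 439 and 731 in SN011, and 1475, 1409 and 969 in 3d-SN011. Ccnd1 had the largest log2 fold change in SN011 against vehicle, at 1.48 (SE 0.38, adjusted p = 0.169, edgeR), followed by Bub1 at 1.35 and Cdc20 at 1.33. Without SN011 replicate 3 these values were 0.86 (SE 0.28, adjusted p = 0.740, edgeR) for Ccnd1, 0.55 for Bub1 and 0.66 for Cdc20, and Bub1 then ranked below Cdc20, Cdk1 and Ccnb2. Against sham, SN011 gave 0 calls of 43 in edgeR, which called 0.113% of all genes higher and 0% lower, and 6 in DESeq2 (Ccna2, Ccnb1, Cdk1, Kif23, Top2a and Tpx2), which called 3.27% of the genes it tested higher. At an unadjusted p under 0.05, 28 were higher there and 0 lower, against 9.75% and 3.03% of all genes. Without SN011 replicate 3, 5 were higher (Ccna2, Ccnb1, Cdk1, Kif23 and Plk1) and 0 lower, against 4.39% and 1.24%. The SN011 libraries lay above all sham libraries for 21 genes and below for 1, against 12.8% and 12.9%. The median log2 fold change was 0.83, or 0.38 without SN011 replicate 3.

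**Figure D4:**
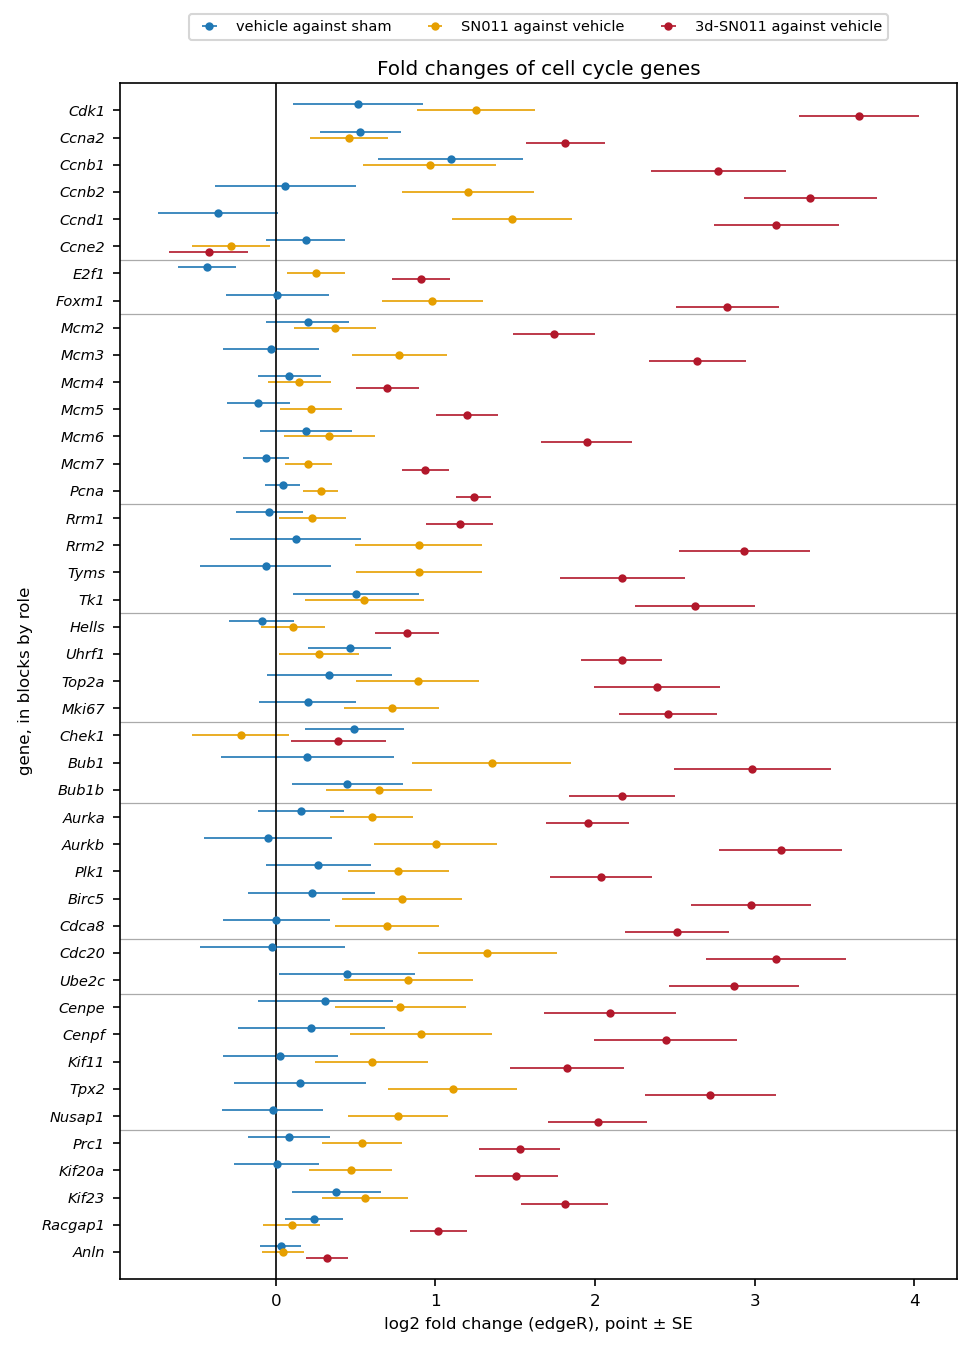
edgeR log2 fold changes with standard errors for the 43 genes in vehicle against sham, SN011 against vehicle and 3d-SN011 against vehicle, in blocks by role. The changes in 3d-SN011 reach 3.65 for Cdk1, those in SN011 reach 1.48 for Ccnd1 (0.86 without SN011 replicate 3), and those in vehicle run from -0.43 to 1.10, with 32 of 43 above 0.

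The 2 arms given SN-011 differed in 40 of the 43 genes, all higher in 3d-SN011, where 23.6% of all genes were higher and 22.9% lower. The median log2 fold change was 1.37, and 1.86 without SN011 replicate 3. Anln, Ccne2 and Chek1 were not called. For 34 genes every 3d-SN011 library lay above every SN011 library, and for 0 below, against 24.6% and 25.7% of all genes, and the other 9 were Ccne2, Mcm4, Tyms, Top2a, Chek1, Cenpe, Cenpf, Kif11 and Nusap1. In each of these 9, replicate 3 of SN011 reached the level of the lowest 3d-SN011 library. Against sham, 42 genes were higher in 3d-SN011, Ccne2 being the exception, where 29.8% of all genes were higher and 27.9% lower, and the median was 2.34. E2f1 lost its call against sham with no filter, with the replicate number as a block, with the 6 libraries compared only, without any 1 sham replicate or without 3d-SN011 replicate 1. Anln lost it with no filter, with the replicate number as a block, without sham replicate 1 or 2, or without 3d-SN011 replicate 1 or 2. The 3d-SN011 libraries lay above all sham libraries for 42 genes and below them for 1, against 31.8% and 31.5% of all genes. These comparisons share the 3d-SN011 libraries with that against vehicle.

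Genes that restrain the cycle were higher in 3d-SN011 as well. Of 10 CDK inhibitors and retinoblastoma family genes, 7 rose against vehicle and 0 fell, against 28.9% and 28.2% of all genes, with a median log2 fold change of 1.32. Cdkn2c, which codes for the CDK4 and CDK6 inhibitor p18, was at 3.56, 2.86 and 4.18 CPM in vehicle, 7.28, 4.56 and 13.04 in SN011, and 35.2, 29.2 and 22.9 in 3d-SN011 (log2 3.04, SE 0.33, adjusted p = 1.89e-05, edgeR). Cdkn1a, which codes for p21, was at 15.1, 12.7 and 16.2 CPM in vehicle, 15.77, 11.6 and 22.7 in SN011, and 59.6, 43.5 and 219 in 3d-SN011 (log2 2.87, SE 0.50). Replicate 3 of 3d-SN011, the lowest of its arm for most of the 43 genes, was the highest for Cdkn1a. Cdkn2b, Rbl1, Cdkn1c and Rb1 rose by log2 2.61, 1.78, 0.85 and 0.83. Cdkn2a rose from at most 0.195 CPM in vehicle to 2.61, 1.04 and 2.05. Cdkn1b, Cdkn2d and Rbl2 did not pass the test, with log2 differences of 0.15, -0.05 and 0.09. Of 8 genes of the p53 response, 6 rose and 0 fell, with Phlda3 at log2 1.92 and Gadd45a at 1.72.

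The 4 other lists of cell cycle genes moved to unlike degrees, and their counts stand against 28.9% of all genes higher and 28.2% lower in 3d-SN011 against vehicle. Of 29 other mitotic genes, 27 rose and 1 fell in 3d-SN011 against vehicle, with a median log2 fold change of 2.25. Dlgap5, a spindle assembly protein, rose by 3.48 and Incenp, the scaffold of the passenger complex, by 1.5. Cit, citron kinase, which acts in cytokinesis and is also abundant in neurons, fell by 1.92 on the log2 scale, from 262, 291 and 265 CPM to 53.7, 76.1 and 86.3. Of 23 genes of origin licensing and the replication fork, 16 rose and 2 fell, with a median of 1.02. Lig1, the ligase of the lagging strand, rose by 1.72 and Pole, a replicative polymerase, by 2.06, while Orc4 and Orc3 of the origin recognition complex fell by 0.85 and 0.43. Of 15 other cyclins, CDKs and CDC25 genes, 9 rose and 1 fell, with a median of 0.68. Cdk2 and Cdk6 rose by 2.52 and 2.28, and Ccnh, the cyclin of the CDK-activating kinase, fell by 0.66. Of 15 other E2F and MuvB genes, 7 rose and 1 fell, closer to those shares, with a median of 0.27, E2f2 and E2f8 at 2.62 and 2.60 and E2f6 at -0.52. In SN011 against vehicle, edgeR called 0 genes of all these lists.

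Marker lists of other cell types were measured in the same libraries, and they did not all move one way. All 12 microglia markers rose in 3d-SN011 against vehicle (median log2 fold change 3.62), where 28.9% of all genes rose and 28.2% fell. Their summed level was 470 to 526 CPM in sham, 445 to 563 in vehicle, 892, 679 and 2593 in SN011, and 5873 to 7579 in 3d-SN011, with none at 0 in any group. It was thus highest within SN011 in replicate 3, the library with the highest cell cycle levels. The same held for the sums of oligodendrocyte precursor, subventricular, astrocyte and mural cell markers, and not for the other marker lists. For mural cell markers the margin was small, at 256 CPM against 252 in replicate 1. In 3d-SN011 replicates 1 to 3, the summed level of the cell cycle genes was 1475, 1409 and 969 CPM, lowest in replicate 3. Oligodendrocyte precursor and astrocyte sums were also lowest in that library. Sums of microglia (7579, 5873 and 5887 CPM), subventricular and mural cell markers (612, 299 and 995 CPM) were not. The 9 oligodendrocyte precursor markers all rose (median 1.027), from 430 to 503 CPM in vehicle to 742 to 1060, with 625, 530 and 720 in SN011 and 482 to 505 in sham. Of 9 markers of subventricular progenitors and neuroblasts, 5 rose and 1 fell. The sums were 171 to 202 CPM in sham, 193 to 235 in vehicle, 153, 232 and 271 in SN011 and 277 to 484 in 3d-SN011.

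The next counts stand against 28.9% of all genes higher and 28.2% lower in 3d-SN011 against vehicle. Of 8 astrocyte markers 7 rose (median 1.39), and their sums were 4476 to 4659 CPM in sham, 4166 to 4510 in vehicle, 5876, 4809 and 8990 in SN011 and 10202 to 15163 in 3d-SN011. Of 8 endothelial markers 5 rose (median 0.64), with sums of 377 to 409, 281 to 319, 291 to 338 and 353 to 513 CPM in the same order of groups. Of 9 mural cell and fibroblast markers 8 rose (median 1.5), with sums of 273 to 287, 223 to 244, 225 to 256 and 299 to 995 CPM. Their sum in SN011 replicates 1 to 3 was 252, 225 and 256 CPM. Markers of monocytes and border macrophages, of neutrophils and of lymphocytes gave lower summed levels. Of 9 markers of monocytes and border macrophages 8 were tested, 6 rose and 1 fell (median log2 fold change 2.78). Their sums were 16.3 to 26.2 CPM in vehicle and 25.3 to 79.0 in 3d-SN011. Of 7 neutrophil markers only 1 had enough counts to be tested, and it was not called, Ly6g and Mpo had at most 3 counts in each 3d-SN011 library, and the sum reached 3.31 CPM there. Of 11 lymphocyte markers 5 were tested, 3 rose and 1 fell, with a median log2 fold change of 1.07. The sum over all 11 fell below that of vehicle, from 82.7 to 106 CPM down to 23.3 to 28.7. Of the 5 tested, 4 had positive changes, and the 1 that fell changed by log2 -2.65. The part of these cell types, and of the fall in neuronal markers, in the change of the cell cycle genes was not tested.

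**Figure D5:**
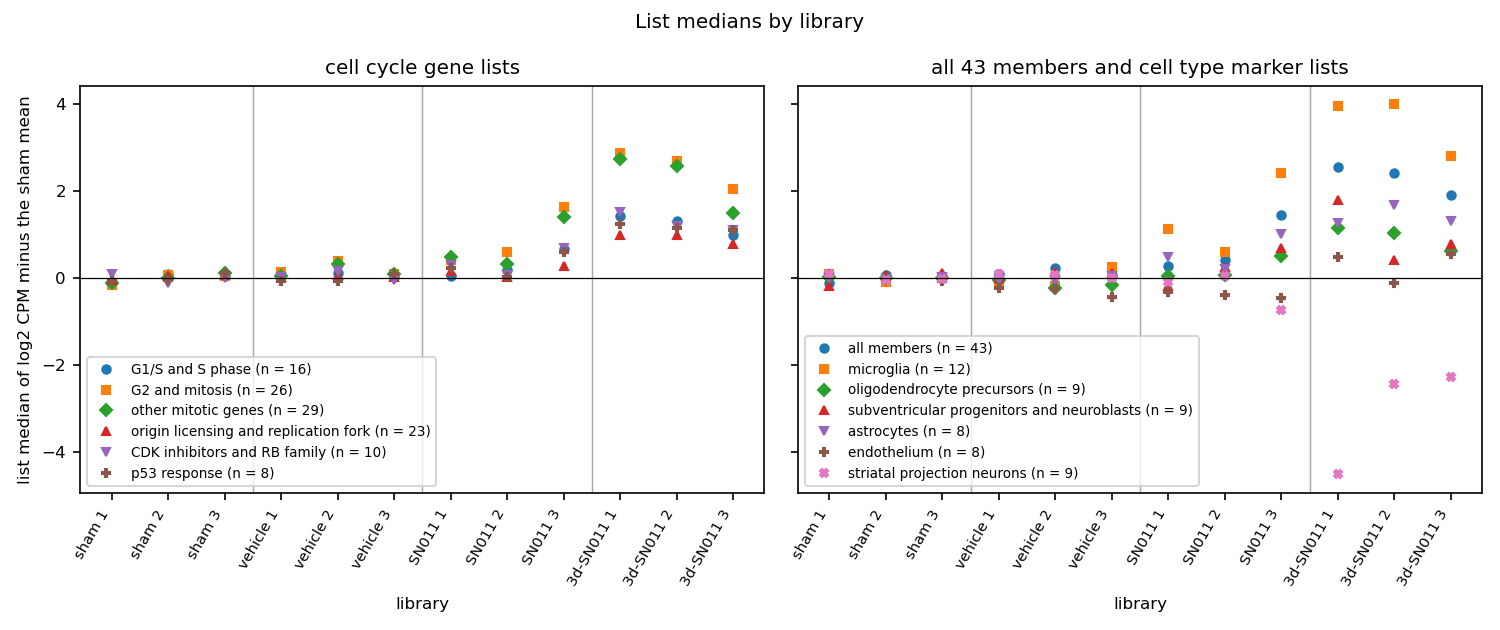
Median over each gene list of log2 CPM minus the sham mean, by library, for cell cycle lists (left) and for all 43 genes with cell type marker lists (right). The 43 genes and the microglia, astrocyte and oligodendrocyte precursor markers are high in 3d-SN011. They are next highest in SN011 replicate 3 (1.44, 2.41, 1.01 and 0.51), where endothelial markers are lowest (-0.47). Striatal projection neuron markers are lowest in 3d-SN011.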

How the data were processed

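The deposited files hold raw read counts for each Ensembl gene, in whole numbers, with 1 table per library. Per the submitters' processing notes, the authors used HISAT2 and featureCounts with mm10. The sources used here name no version, annotation or strand setting, and 12 of the 43 genes overlap exons of another gene on the other strand. Groups came from the titles. With edgeR 4.0.16 (R 4.3.3), all 12 libraries were fitted with group as the only term after TMM scaling. filterByExpr by group (minimum count 10) left 18537 genes. All pairs of groups were compared by the quasi-likelihood test, and calls were made at 0.05 after Benjamini-Hochberg adjustment across those genes. CPM is TMM-scaled, with a prior count of 2 for log2 CPM. The fit was tried on simulated data with the same spread for every gene, which does not measure its error in these data.

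Replicate pairs all showed more than counting error (chi-square per degree of freedom 4.79 to 78.2), and each library was counted as 1 sample. Totals ran from 15806076 to 18622053 counts, so the spread between samples exceeded what depth alone gives. Gene positions are GRCm38 (GENCODE M21), counted from 1. The 43 genes and all lists were chosen with earlier results of these data known. Values per library are given for the genes of smallest and largest p in each role, the 2 largest and 2 smallest changes, and genes not called in 3d-SN011 against vehicle; Ccnd1, Ccnb1, Mki67 and Top2a were added after their values were seen. Of other cell cycle lists, up to 2 called genes in each direction and all inhibitors are named. Alternatives were RLE scaling, library totals only, no filter, DESeq2 1.42.0, the replicate number as a block, the 6 libraries compared only and leaving out each replicate. A refit on the 9 libraries outside the 3d-SN011 arm was chosen after seeing the data. Figures were drawn with matplotlib 3.10.9.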

Additional observations from a re-analysis of the deposited data

How the results depend on the processing

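The rise in 3d-SN011 held in each analysis run: 40 to 41 of the 43 genes were called against vehicle, 34 to 41 against SN011 and 39 to 42 against sham. Of all genes, 15.5% to 33.7% were higher against vehicle, 12.1% to 26.1% against SN011 and 15.6% to 35.5% against sham. The count against SN011 fell to 34 with the 6 libraries compared only or without SN011 replicate 1, where 15.3% and 16.8% of all genes were higher. In SN011 against vehicle, 5 genes were called with no filter (Ccnd1, Cdc20, Cdk1, Foxm1 and Tpx2), 2 with DESeq2 and 0 to 2 on leaving out 1 replicate, the 2 being Ccnd1 and Cdk1 without SN011 replicate 2. Of all genes, 1.72%, 2.53% and 2.64% were higher with no filter, with DESeq2 and without that replicate. In SN011 against sham, 14 were called with no filter, 6 with DESeq2 and 0 to 4 on leaving out 1 replicate, the 4 being Ccnb1, Cdk1, Foxm1 and Plk1 without SN011 replicate 2. The shares of all genes were 2.19%, 3.27% and 3.45%. The cause was not tested. In vehicle against sham, 0 were called in each analysis, and the median ran from 0.05 to 0.19 on leaving out 1 replicate. With library totals as the only scaling, the median of all genes moved by 0.15 (log2) in 3d-SN011 against vehicle, and the median of the 43 genes was 2.24. In 3d-SN011 against vehicle, Anln lost its call in 8 analyses (log2 fold change 0.19 to 0.35) and E2f6 in 4 (-0.53 to -0.37). No direction reversed among the genes named for that comparison. In SN011 against vehicle, Mcm6, Uhrf1, Rrm1, Mcm4, Hells, Racgap1 and Tk1 turned from positive to negative without SN011 replicate 3. Mcm6 went from 0.33 to -0.12 and Uhrf1 from 0.27 to -0.06. Against sham, Mcm7, Chek1, Rrm1 and Hells did so without that replicate.

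Groups share replicate numbers, but the labels do not say that a number marks a shared animal, litter or day. Of 18 same-numbered pairs, 2 had correlated deviations over 0.1 (r from -0.29 to 0.14). Pairs with unlike numbers ran from -0.23 to 0.28. With deviations taken from means of 3 libraries, these values cannot decide whether a number marks anything shared. With the number as a block, 40 of the 43 genes were called in 3d-SN011 against vehicle, 39 against SN011, 40 against sham, and 0 in each of the other comparisons. Of all genes, 27.7%, 21.8% and 28.4% were higher in 3d-SN011 against vehicle, SN011 and sham.

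Precision was lowest in SN011, where the median coefficient of variation was 44.4%. Depth limited Bub1 in sham, at 10 counts in 1 library.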

Other observations

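Some copies and neighbours of the 43 genes had counts of their own. Ccnb2-ps, a processed copy of Ccnb2, had 112, 123 and 126 counts in sham, 140, 155 and 95 in vehicle, 119, 119 and 106 in SN011, and 91, 134 and 24 in 3d-SN011, so its counts did not follow those of Ccnb2. Pcna-ps2 had 0 to 2 counts in each sham and vehicle library, 5, 8 and 3 in SN011, and 29, 17 and 18 in 3d-SN011. Tyms-ps and Pcna-ps1 had 0 counts in each library. How reads that fit both a gene and its copy were assigned is not given in the sources used here.

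Markers of choroid plexus and ependyma differed widely between libraries of a group. Their summed level was 2474, 1214 and 113 CPM in sham, 1306, 2672 and 2122 in vehicle, 2973, 1036 and 2483 in SN011, and 245, 826 and 125 in 3d-SN011.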
